A study of Rattus norvegicus with 12 samples.

Results

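The 9 genes described here encode transcription regulators that are widely used to tell apart the deep and the upper layers of the cerebral cortex. They are Tbr1, Bcl11b, Fezf2, Foxp2 and Tle4 for the deep layers, and Cux1, Cux2, Rorb and Pou3f2 for the upper layers. They were chosen by gene name, and every array probe that carried one of those names was taken, which gave 12 probes of 30367. The deep layer genes had 5 probes, 1 for each gene. The upper layer genes had 7 probes, of which 3 were for Cux2 and 2 for Cux1.

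The animals were female Sprague-Dawley rats, and RNA came from their prefrontal cortex, in 3 groups of 4 biological replicates per the labels. In the betamethasone with ketamine group, dams had 2 injections of the synthetic glucocorticoid betamethasone, 0.4 mg/kg each, on gestational day 15, and pups had the NMDA receptor blocker ketamine, 35 mg/kg, on postnatal day 14. In the betamethasone group the dams were treated alike and the pups had saline. In the control group dams and pups both had saline. Tissue was taken on postnatal day 15, although 1 label field gives another age. The labels also state that rats with infantile spasms were given ketamine or saline on day 14, without saying in the sample names which groups had shown spasms. No litter was named, so p-values measure the spread between these samples.

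In the developing cortex, deep layer neurons are born before upper layer neurons. Factors in each set promote one neuronal identity and repress another, an order worked out mostly in mice. Deep layer neurons include those that project out of the cortex to the brainstem, spinal cord and thalamus, whereas many upper layer neurons project to other cortical areas. Several of the factors remain active in the neurons after birth, and their RNA is used to mark layers in postnatal tissue. In whole tissue, fewer cells of a type and less RNA per cell cannot be told apart.

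The probe sequences, as given in the array files, show which part of each transcript was read, and 1 is printed per gene. The deep layer set starts with the Tbr1 probe A_64_P015776, in which capitals mark the stop codon that ends its open reading frame, and goes on with Bcl11b probe A_44_P185355, Fezf2 probe A_44_P1038593, Foxp2 probe A_64_P048106 and Tle4 probe A_44_P208004.
Tbr1: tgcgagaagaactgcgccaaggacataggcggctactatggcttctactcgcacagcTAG
Bcl11b: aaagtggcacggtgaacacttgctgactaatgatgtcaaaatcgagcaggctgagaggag
Fezf2: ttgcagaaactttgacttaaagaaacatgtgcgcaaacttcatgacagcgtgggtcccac
Foxp2: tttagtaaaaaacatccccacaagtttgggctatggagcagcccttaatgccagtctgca
Tle4: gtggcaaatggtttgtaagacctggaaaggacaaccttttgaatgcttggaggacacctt

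In the upper layer set, capitals in Cux1 (A_64_P096157) and Pou3f2 (A_64_P043609) mark 4 codons of the recognition helix of the homeodomain, the DNA-binding fold that both proteins carry. They read tryptophan, phenylalanine, histidine and asparagine in Cux1, and tryptophan, phenylalanine, cysteine and asparagine in Pou3f2. The Cux2 probe is A_64_P012877 and the Rorb probe is A_44_P463791.
Cux1: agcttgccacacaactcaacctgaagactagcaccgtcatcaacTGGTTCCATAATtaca
Cux2: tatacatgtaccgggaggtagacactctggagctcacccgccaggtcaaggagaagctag
Pou3f2: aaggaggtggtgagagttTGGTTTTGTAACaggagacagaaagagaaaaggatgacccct
Rorb: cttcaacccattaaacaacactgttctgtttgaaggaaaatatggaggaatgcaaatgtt

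Coordinates were those of the array files, on rat build rn4. The deep layer probes lay at chr3:43647046-43647105 on the minus strand for Tbr1, chr6:132294349-132294408 on the minus strand for Bcl11b, chr15:14354072-14354131 on the plus strand for Fezf2 and chr4:40951705-40951764 on the plus strand for Foxp2. The Tle4 probe, 60 bases long, was assigned the longer interval chr1:217638327-217638722 on the minus strand, 396 bases. Rorb lay at chr1:222565066-222565125 and Pou3f2 at chr5:37282391-37282450, both on the minus strand. The Cux1 probes were A_64_P088005 at chr12:21516811-21516870 and A_64_P096157 at chr12:21511086-21511145, both on the plus strand. The Cux2 probes were also on the plus strand, A_64_P017515 at chr12:35910352-35910411, A_44_P485948 at chr12:35910394-35910453 and A_64_P012877 at chr12:35901248-35901307. The first pair of Cux2 probes shared 18 bases, aaaggtaccacattctca, at chr12:35910394-35910411. No rn4 gene annotation was used here, so exons and untranslated regions were not assigned.

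The arrays were read in 2 colours, with a different animal of the same group in each channel of each of 6 arrays. Between 71.4% and 81.5% of the 42877 non-control spots were well above background in a sample, and none was saturated. The control arrays lay on 1 slide and the other 4 arrays on a second slide, so slide and treatment cannot be told apart in any comparison with control, while the groups with and without ketamine shared a slide. Of 5 general markers of cortical excitatory neurons, 5 were well above background in all samples. Of 8 markers of striatal projection neurons, which could enter a dissected block, 7 were measured, with summed intensities of 8116 to 8807 in betamethasone with ketamine, 7890 to 9383 in betamethasone and 8084 to 8736 in control.

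Of the 12 probes, 11 from 8 genes passed the filter, which kept a probe when 3 or more of the 4 samples in any 1 group were well above background. The exception was Foxp2, a forkhead factor of deep corticothalamic neurons. Its probe was well above background in 1 of 4 betamethasone with ketamine samples, 0 of 4 betamethasone samples and 1 of 4 control samples, and its log2 intensities lay between 7.27 and 7.51. Foxp2 was therefore not tested. Cux1 probe A_64_P096157 was well above background in 10 of 12 samples, and the other 10 probes in all 12.

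**Figure D1:**
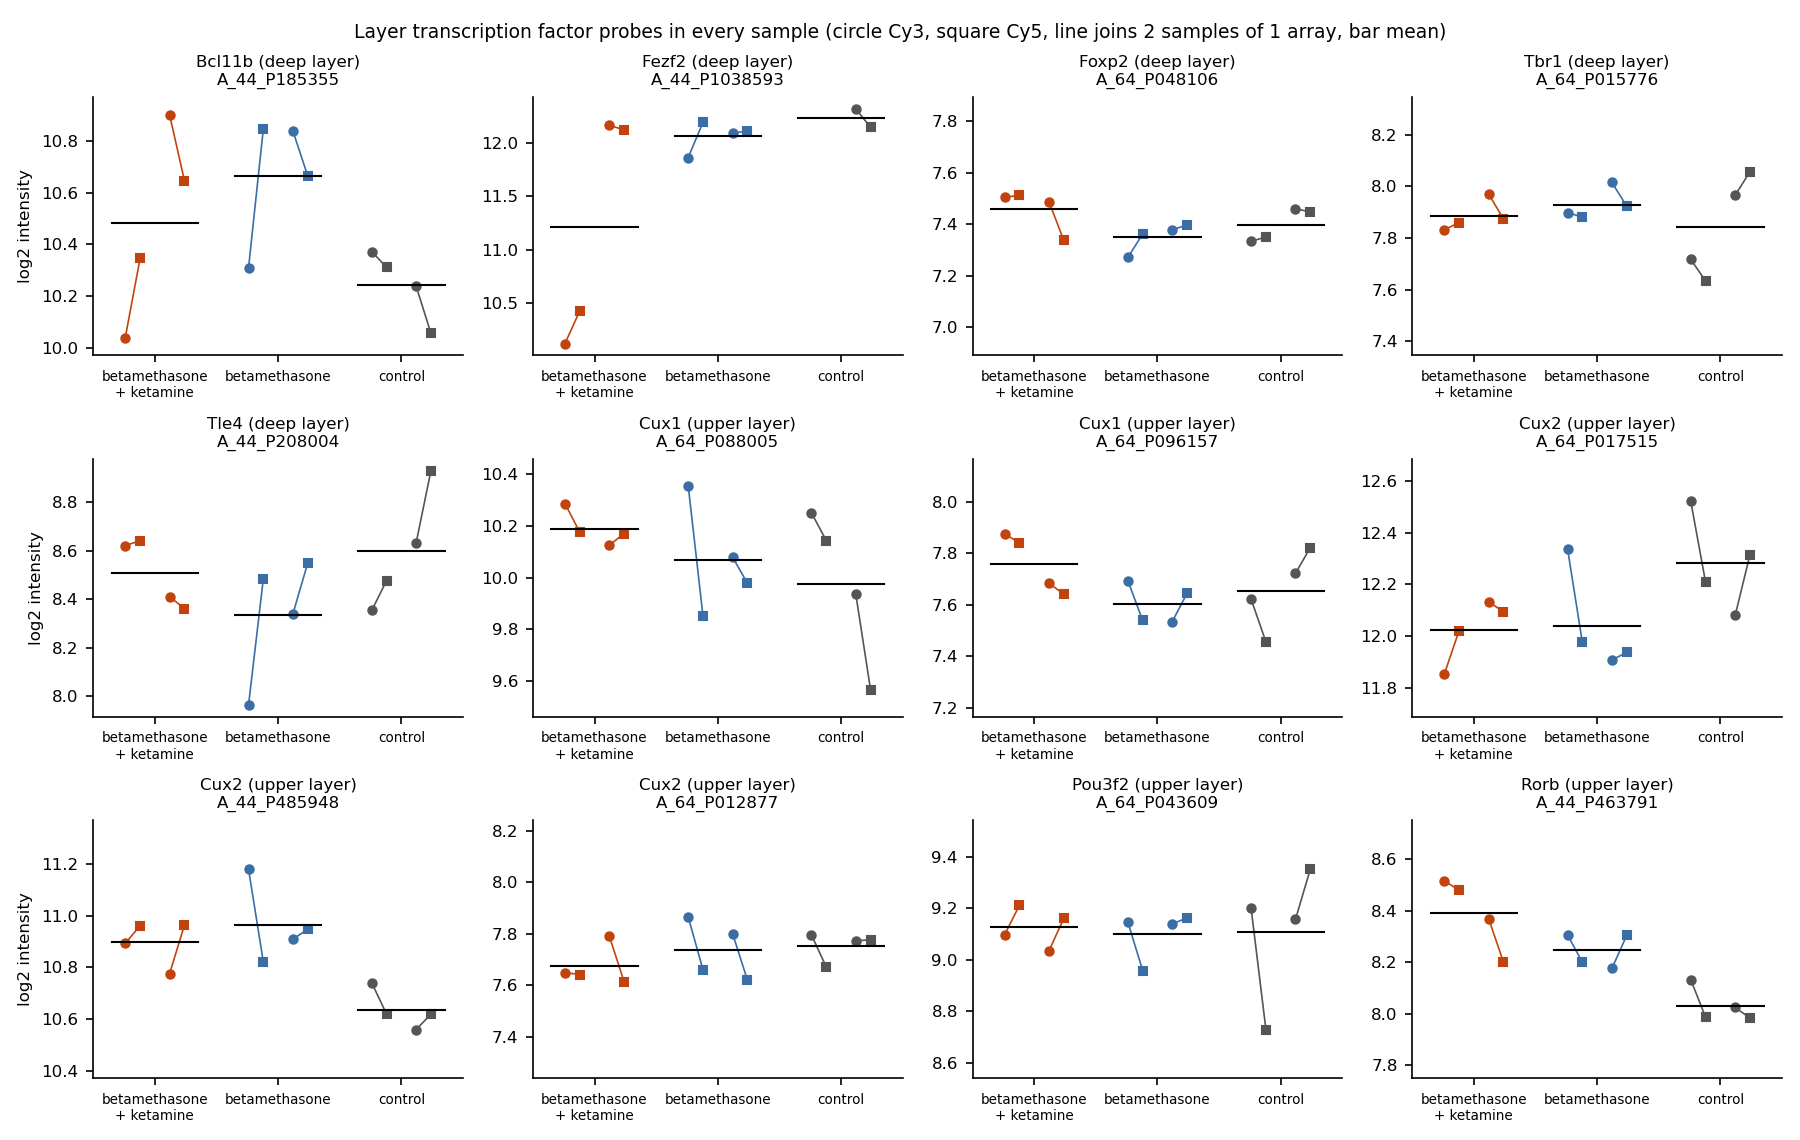
Log2 intensity of the 12 probes (y axis, with its own range in each panel) in the 4 samples of betamethasone with ketamine, betamethasone and control (x axis); circles are Cy3, squares Cy5, a line joins the 2 samples of an array and a bar is the group mean. Rorb and Cux2 probe A_44_P485948 had both treated groups above all control samples, and Fezf2 was low on 1 array of the betamethasone with ketamine group; control samples 1 and 2 have no Fezf2 value.

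No layer transcription factor passed an adjusted p of 0.05 in any comparison. Prenatal betamethasone against control gave 0 of 10 member probes, against 0.213% of all probes tested. Ketamine against saline after betamethasone gave 0 of 11, against 0% of all probes. Betamethasone with ketamine against control gave 0 of 10, against 0.0784% of all probes. The test was limma's moderated fit on log2 intensities over all 12 samples, with dye as a term and array as a random block, and with Benjamini-Hochberg adjustment over all probes tested. At an unadjusted p under 0.05 the member counts were 1, 0 and 1, against 11.5%, 3.14% and 13.9% of all probes. The median standard error over all probes was 0.14 in each comparison, and the median log2 change of all probes was 0.03, 0.05 and 0.07.

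**Figure D2:**
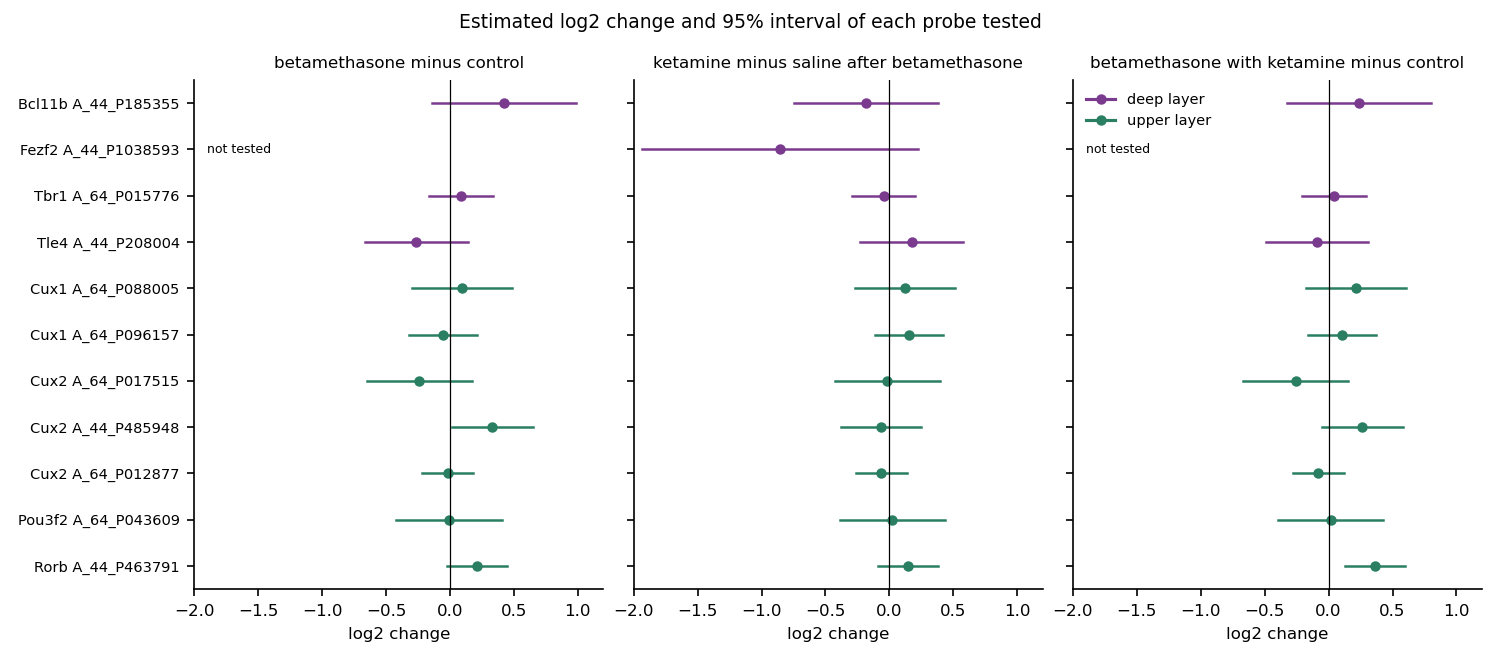
Log2 change (x axis) with its 95% interval for the 11 probes kept (y axis) in the 3 comparisons; deep layer genes are purple and upper layer genes green. All intervals include 0 except those of Cux2 probe A_44_P485948 for betamethasone against control (0.02 to 0.65) and of Rorb for betamethasone with ketamine against control (0.12 to 0.59).

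Among the deep layer genes, Bcl11b encodes a zinc finger factor that directs the axons of neurons projecting below the cortex. Its log2 intensities were 10.04, 10.35, 10.90 and 10.65 in betamethasone with ketamine samples 1 to 4, 10.31, 10.85, 10.84 and 10.67 in betamethasone samples, and 10.37, 10.31, 10.24 and 10.06 in control samples. All 3 groups overlapped, and 3 of 4 betamethasone samples lay above every control sample. The log2 difference was 0.42 between betamethasone and control, with a 95% interval of -0.14 to 0.99 and an adjusted p of 0.568 by limma. The difference was -0.18 between ketamine and saline after betamethasone (adjusted p = 0.93 by limma). Between the arrays of the betamethasone with ketamine group the array means were 10.19 and 10.77, a gap wider than either difference. Without the array of samples 1 and 2 the ketamine difference was 0.11, and without the other array of that group betamethasone with ketamine against control was -0.05, where all samples gave 0.24.

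Fezf2 encodes a zinc finger factor that, in mice, acts upstream of Bcl11b in the choice of the subcerebral fate. Its log2 intensities were 10.13, 10.43, 12.16 and 12.12 in betamethasone with ketamine samples and 11.86, 12.19, 12.09 and 12.10 in betamethasone samples. Control samples 3 and 4 had 12.31 and 12.14, and the spot on the array of control samples 1 and 2 was marked as uneven by the scanner software and left out. The 2 low values were those of 1 array, whose mean of 10.28 stood apart from the 12.14 of the other array of that group.

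The Fezf2 difference between ketamine and saline after betamethasone was -0.85 on the log2 scale, with a 95% interval of -1.93 to 0.23 and an adjusted p of 0.909 by limma. The Fezf2 spot of the low array lay in an area where neighbouring spots also departed from the other arrays. Such areas were defined from the intensities alone, the Fezf2 spot's own included, and their cause was not tested. All such areas of the low array together held 7.24% of its spots, with a median departure of -0.63. No other member probe lay in such an area on any array. Without that array the difference was 0.08, with an interval of -0.25 to 0.41. With only that array left in the ketamine group it was -1.78, at an adjusted p of 0.000787 by limma, so that 1 array set both the size and the call. In that fit 2604 probes were called for ketamine against saline, where all samples gave 0, so a call there was not particular to Fezf2. Differences from control were not tested, since a test needed values in 3 samples of each group and Fezf2 had 2 control values, both from 1 array. With uneven spots kept, control samples 1 and 2 had 11.27 and 11.48, and the difference was 0.26 between betamethasone and control (adjusted p = 0.892 by limma) and -0.59 between betamethasone with ketamine and control (adjusted p = 0.567 by limma).

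Tle4 encodes a corepressor of the Groucho family that marks corticothalamic neurons. Its log2 intensities were 8.62, 8.64, 8.41 and 8.36 in betamethasone with ketamine samples, 7.96, 8.48, 8.34 and 8.55 in betamethasone samples, and 8.35, 8.48, 8.63 and 8.93 in control samples. The groups overlapped throughout, and the lowest value was that of a single betamethasone sample. The difference was -0.27 between betamethasone and control, with an interval of -0.67 to 0.14, and 0.17 between ketamine and saline after betamethasone, with an interval of -0.23 to 0.58.

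Tbr1 encodes a T-box factor of early-born corticothalamic neurons. Its log2 intensities were 7.83, 7.86, 7.97 and 7.87 in betamethasone with ketamine samples, 7.90, 7.88, 8.02 and 7.92 in betamethasone samples, and 7.72, 7.63, 7.97 and 8.06 in control samples. All treated samples lay within the control range, which was set by a gap between the control arrays, at 7.68 and 8.01 in the mean. The 3 differences lay between -0.05 and 0.09, and the interval for betamethasone against control was -0.16 to 0.33. Against control samples 3 and 4 alone, the betamethasone difference was -0.08. The probe was dim, and the background offset narrows the changes of dim probes. For betamethasone against control the interval was -0.19 to 0.44 with an offset of 10. With Agilent's processed signals it was -0.55 to 0.89, so the width of the Tbr1 interval depended on the processing.

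Among the upper layer genes, Rorb encodes an orphan nuclear receptor that is best known from the input layer of sensory cortex. Its log2 intensities were 8.52, 8.48, 8.37 and 8.20 in betamethasone with ketamine samples, 8.31, 8.20, 8.18 and 8.30 in betamethasone samples, and 8.13, 7.99, 8.02 and 7.98 in control samples. Every sample of both treated groups lay above every control sample, while the treated groups overlapped each other. Group means were 8.39 ± 0.14 in betamethasone with ketamine, 8.25 ± 0.07 in betamethasone and 8.03 ± 0.07 in control (SD, n = 4 each).

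The Rorb difference between betamethasone with ketamine and control was 0.36 on the log2 scale, or 1.28-fold with an interval of 1.09 to 1.51, at an unadjusted p of 0.00639 and an adjusted p of 0.241 by limma. It was 0.21 between betamethasone and control (interval -0.02 to 0.45, adjusted p = 0.472 by limma). Between ketamine and saline on the shared slide it was 0.14 (interval -0.09 to 0.38, adjusted p = 0.909 by limma). For betamethasone against control it was 0.27 with an offset of 10 (interval -0.02 to 0.55). With Agilent's processed signals it was 0.39 (interval 0.11 to 0.67), beside a median of 0.08 over all probes. Neither passed the threshold on adjusted p. The difference between betamethasone with ketamine and control passed the threshold when the array block was dropped (adjusted p = 0.0320 by limma). Without the block, the 2 samples of an array count as independent, although the array correlation was 0.55. The difference also passed, at 0.47, when the array of betamethasone with ketamine samples 3 and 4 was left out (adjusted p = 0.0102 by limma). In this comparison those settings called 860 and 3514 probes, against 17 in the main fit. In the deposited value table, where the median difference of all probes was -1.02, the Rorb difference was -0.52, and 0.00 after its columns were centred.

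Member probes whose groups did not overlap numbered 2 for betamethasone against control, 0 for ketamine against saline and 2 for betamethasone with ketamine against control. Over all probes such a separation was found in 17.5%, 3.9% and 15.5%. Both member probes, Rorb and Cux2 A_44_P485948, were higher in the treated samples, as were 10.4% and 11.9% of all probes in the comparisons with control.

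Cux2 encodes a cut-homeodomain factor of upper layer neurons with roles in dendrites and synapses. Probe A_44_P485948 had log2 intensities of 10.89, 10.96, 10.78 and 10.96 in betamethasone with ketamine samples, 11.18, 10.82, 10.91 and 10.95 in betamethasone samples, and 10.74, 10.62, 10.56 and 10.62 in control samples. All treated samples lay above all control samples. The difference between betamethasone and control was 0.33, or 1.26-fold with an interval of 1.01 to 1.56 (unadjusted p = 0.0413 and adjusted p = 0.419 by limma). Between betamethasone with ketamine and control it was 0.26 (adjusted p = 0.423 by limma).

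The probe that shares 18 bases with it did not show this order. Probe A_64_P017515 had 11.85, 12.02, 12.13 and 12.09 in betamethasone with ketamine samples, 12.34, 11.98, 11.91 and 11.94 in betamethasone samples, and 12.52, 12.21, 12.08 and 12.32 in control samples. Its groups overlapped, and its differences from control were -0.24 for betamethasone and -0.26 for betamethasone with ketamine, with intervals that included 0. The third probe, A_64_P012877, had 7.61 to 7.79 in betamethasone with ketamine samples, 7.62 to 7.87 in betamethasone samples and 7.67 to 7.80 in control samples, and differences of -0.08 to -0.02. The 3 Cux2 probes thus gave no common direction for the gene.

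The values of Cux2 probe A_44_P485948 stood apart by group from those of both other probes. Its difference from the overlapping probe, A_64_P017515 minus A_44_P485948 on the log2 scale and centred on its mean over 12 samples, was -0.32, -0.22, 0.07 and -0.15 in betamethasone with ketamine samples, -0.13, -0.13, -0.28 and -0.29 in betamethasone samples, and 0.50, 0.31, 0.24 and 0.41 in control samples. All 4 control samples lay above all 8 treated samples, and the treated groups overlapped. The group means were -0.16 ± 0.17, -0.21 ± 0.09 and 0.36 ± 0.12 in that order (SD, n = 4 each). Set against the probe that does not overlap it, A_44_P485948 minus A_64_P012877, the difference was -0.13 to 0.24 in betamethasone with ketamine samples, -0.00247 to 0.216 in betamethasone samples and -0.32 to -0.16 in control samples. Treated and control samples did not overlap there either. Because A_64_P012877 was dim and stayed within 7.61 to 7.87 in all samples, that difference mostly repeats A_44_P485948 itself. The pair without A_44_P485948 overlapped between all groups. GC content was 26.7% in A_44_P485948 and 55% in each of the other probes. The part of slide and of base content in these differences was not tested.

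**Figure D3:**
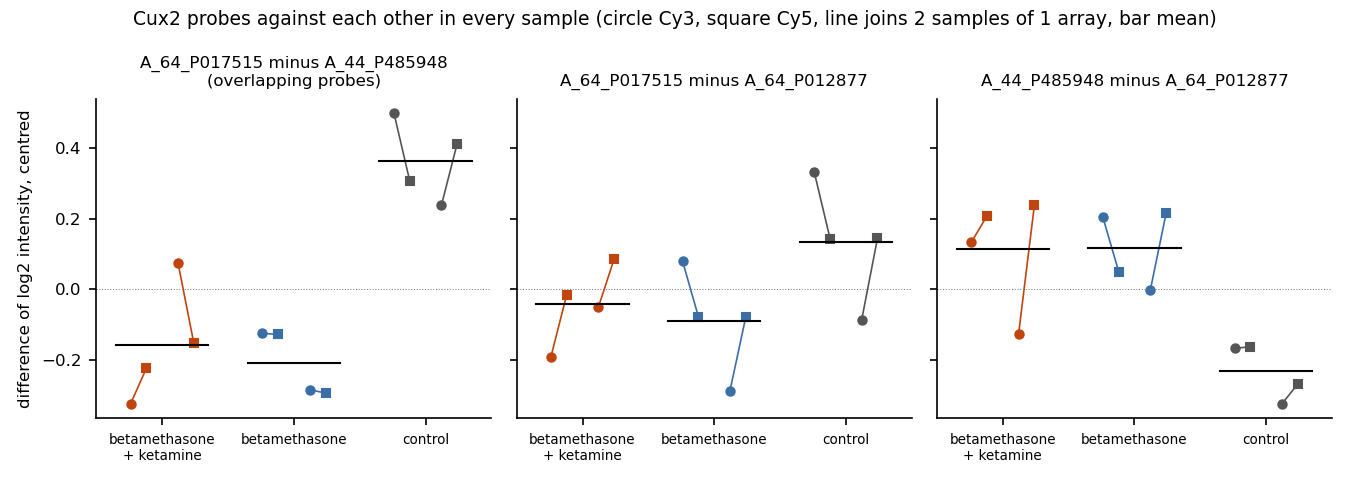
Difference in log2 intensity between each pair of Cux2 probes (y axis, centred on the mean of 12 samples) in betamethasone with ketamine, betamethasone and control samples (x axis); circles are Cy3, squares Cy5, a line joins the 2 samples of an array and a bar is the group mean. In the overlapping pair, treated samples sit at -0.32 to 0.07 and control samples at 0.24 to 0.50; in A_44_P485948 minus A_64_P012877 treated samples sit at -0.13 to 0.24 and control samples at -0.32 to -0.16, and in the remaining pair the groups overlap.

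Cux1 encodes the paralogue of Cux2, with a partly shared role in upper layer dendrites. Probe A_64_P088005 had log2 intensities of 10.29, 10.18, 10.13 and 10.17 in betamethasone with ketamine samples, 10.36, 9.85, 10.08 and 9.98 in betamethasone samples, and 10.25, 10.14, 9.93 and 9.56 in control samples. The ketamine samples were the closest together, with an SD of 0.07 against 0.22 in betamethasone and 0.30 in control. Probe A_64_P096157 ranged over 7.64 to 7.88 in betamethasone with ketamine, 7.54 to 7.69 in betamethasone and 7.46 to 7.82 in control. The differences of the 2 probes were 0.22 and 0.10 between betamethasone with ketamine and control, 0.12 and 0.16 between ketamine and saline, and 0.09 and -0.05 between betamethasone and control, all with intervals that included 0.

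Pou3f2 encodes a POU-homeodomain factor that drives the production and migration of upper layer neurons together with a close relative. Its log2 intensities were 9.10, 9.21, 9.03 and 9.16 in betamethasone with ketamine samples, 9.15, 8.96, 9.14 and 9.16 in betamethasone samples, and 9.20, 8.73, 9.16 and 9.35 in control samples. The treated samples lay inside the control range. The 3 differences lay between -0.01 and 0.02, and the interval for betamethasone against control was -0.42 to 0.40, which spans 0.748-fold to 1.32-fold.

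Deep and upper layer genes were then set side by side. For betamethasone against control the median log2 change was 0.09 over 3 deep layer probes, 2 of them above 0, and -0.01 over 7 upper layer probes, 3 of them above 0. Of those 7 probes 3 were for Cux2 and 2 for Cux1, and with only the brightest probe of each gene the upper layer median was 0.0426. For Cux2 that probe was A_64_P017515, at -0.24, while A_44_P485948 gave 0.33, so this median depended on the choice. For ketamine against saline the median log2 change was -0.11 over 4 deep layer probes and 0.02 over 7 upper layer probes. The deep layer median was -0.0454 with the areas of departing spots, and so Fezf2, left out. The upper layer median ranged over -0.0225 to 0.0828 when 1 sample at a time was left out. For betamethasone with ketamine against control it was 0.04 and 0.10. Over both classes, 5 of 10, 5 of 11 and 7 of 10 member probes had a change above 0 in the 3 comparisons, beside 56.2%, 63.2% and 64% of all probes.

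A class mean per sample was formed from centred log2 intensities. It took 3 deep layer genes (Tbr1, Bcl11b and Tle4) and the 4 upper layer genes. Each gene entered with its brightest probe, which was A_64_P088005 for Cux1 and A_64_P017515 for Cux2. For betamethasone against control that Cux2 probe gave -0.24 and A_44_P485948 gave 0.33, so the upper mean depended on this choice. The deep mean minus the upper mean was -0.17, -0.08, 0.12 and -0.01 in betamethasone with ketamine samples, -0.37, 0.26, 0.18 and 0.14 in betamethasone samples, and -0.27, -0.02, 0.09 and 0.15 in control samples. The 3 groups overlapped, with means of -0.04 ± 0.12, 0.05 ± 0.29 and -0.02 ± 0.19 (SD, n = 4 each). The widest gap was between the animals of 1 betamethasone array, at -0.37 in Cy3 and 0.26 in Cy5.

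**Figure D4:**
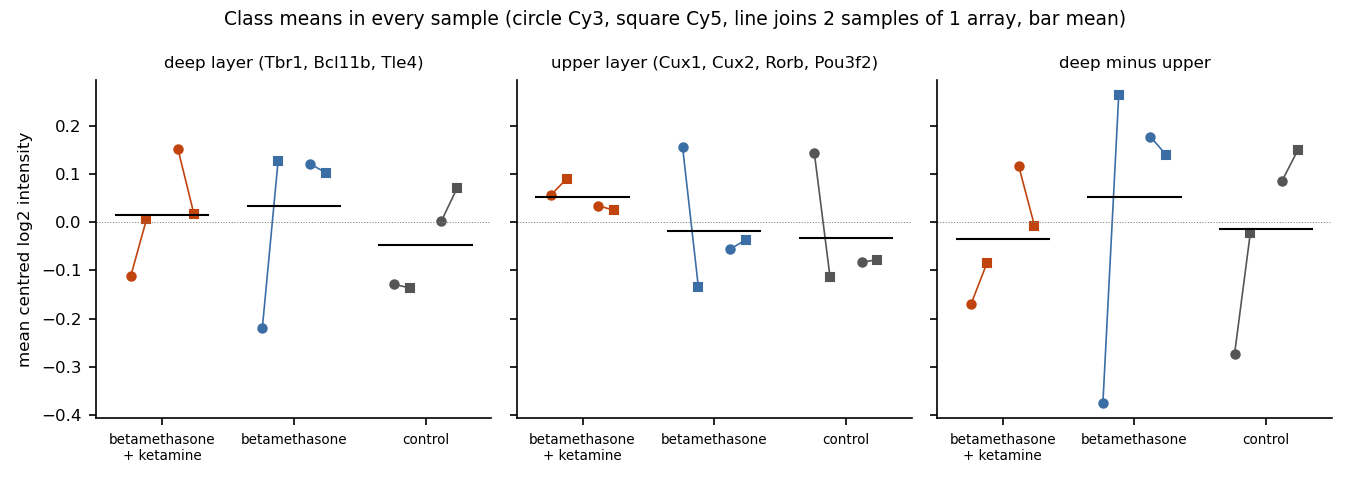
Mean centred log2 intensity (y axis) of deep layer genes, upper layer genes and their difference in betamethasone with ketamine, betamethasone and control samples (x axis); circles are Cy3, squares Cy5, a line joins the 2 samples of an array and a bar is the group mean. The groups overlap in all 3 panels, and betamethasone samples 1 and 2, from 1 array, differ by the full range of the deep minus upper values, -0.37 to 0.26.

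Other genes enriched in these layers were examined in the same fit. Of 30 further deep layer genes 24 were tested, and of 27 further upper layer genes 24 were tested. No gene of either list passed in any comparison. For betamethasone against control, the deep list had 10 genes above 0 and 14 below with a median of -0.06, and the upper list had 16 above and 8 below with a median of 0.04, beside a median of 0.03 over all genes. For ketamine against saline the deep list was 12 and 12 with a median of 0.00, and the upper list 18 and 6 with a median of 0.09, beside 0.05 over all genes. For betamethasone with ketamine against control the medians were 0.01 and 0.14, beside 0.07.

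In the deep list the smallest unadjusted p for betamethasone against control were those of Sox5, Ldb2 and Nxph3. Sox5, a factor that keeps deep layer identities apart, had means of 11.85 ± 0.04 in betamethasone with ketamine, 11.66 ± 0.10 in betamethasone and 11.88 ± 0.10 in control (SD, n = 4 each). Its betamethasone samples all lay below the control samples and below the ketamine samples, at differences of -0.22 (adjusted p = 0.468 by limma) from control and 0.19 (adjusted p = 0.909 by limma) for ketamine over saline. Ldb2, which encodes a LIM-domain binding protein, differed by 0.32 and Nxph3, which encodes a neurexin ligand, by -0.70 between betamethasone and control. For ketamine against saline, the glutamate receptor gene Grik3 differed by 0.15 and the channel gene Trpc4 by 0.22, and in both genes the groups did not overlap. Grik3 was dim, with means of 7.54 with ketamine and 7.39 with saline. Of 24 tested deep list genes, 2 did not overlap for betamethasone against control and 3 for ketamine against saline. Over all probes the shares were 17.5% and 3.9%. The genes named were those with the smallest p, a choice that favours groups without overlap.

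In the upper list, Otof, which encodes otoferlin, had means of 14.51 ± 0.19 in betamethasone with ketamine, 14.12 ± 0.33 in betamethasone and 14.65 ± 0.28 in control (SD, n = 4 each). The Otof difference was -0.53 between betamethasone and control (unadjusted p = 0.0232 and adjusted p = 0.351 by limma) and 0.39 between ketamine and saline. Mdga1, which encodes a cell adhesion protein, differed by 0.20 between betamethasone and control without overlap (adjusted p = 0.423 by limma), and Limch1 by -0.32. Mdga1 was the 1 gene without overlap there of 24 tested upper list genes, beside 17.5% of all probes. For ketamine against saline, Bhlhe22, a basic helix-loop-helix factor, differed by -0.25 and Lamp5, a membrane protein of neurons, by 0.41. None of these passed the test.

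**Figure D5:**
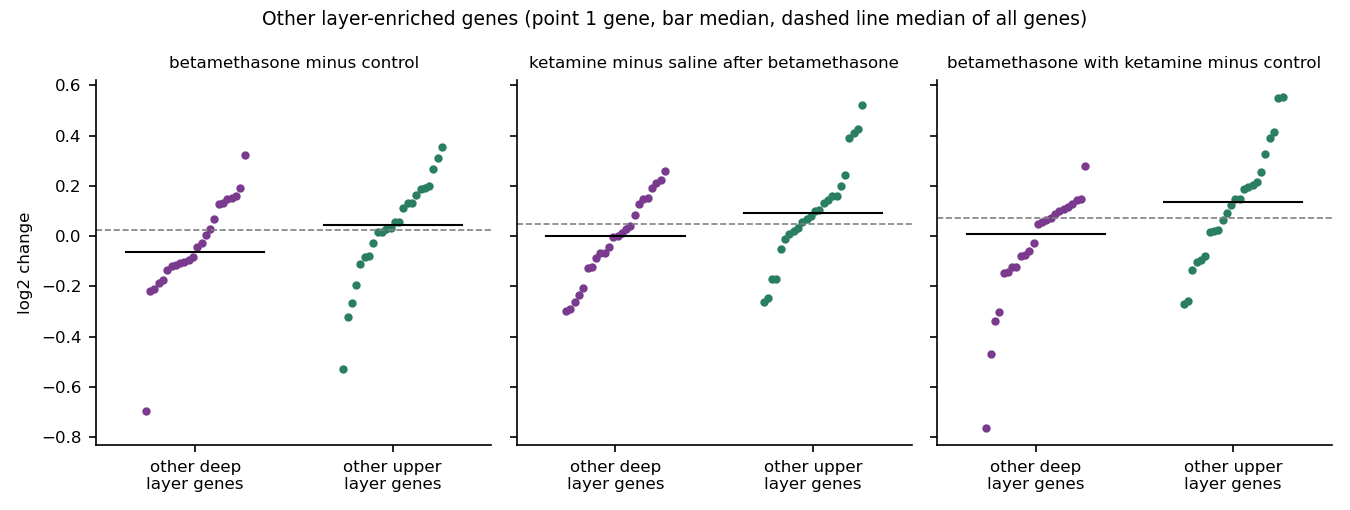
Log2 change (y axis) of each further deep (purple) and upper (green) layer gene in the 3 comparisons; bars are list medians and the dashed line is the median of all genes. The list medians lie between -0.06 and 0.14.

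Genes that act before the 9 factors, or are described as their targets, were taken as further lists. Of 14 tested genes of progenitors and upstream factors, 6 were above 0 and 8 below for betamethasone against control, with a median of -0.05 and no gene passing. Of 8 tested genes described as regulated by Fezf2 or Tbr1, 4 were above 0 and 4 below, with a median of -0.07 and no gene passing. For ketamine against saline the medians of these lists were 0.02 and 0.17, and for betamethasone with ketamine against control -0.08 and 0.06.

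Markers of other cell types were summed in the same samples. The summed intensity of 3 endothelial markers was 6150 to 8491 in betamethasone with ketamine, 5921 to 6922 in betamethasone and 2859 to 5673 in control, with no overlap between treated and control samples. Taken singly, Cldn5 had no overlap with control, while Pecam1 and Flt1 overlapped it. Of all probes, 17.5% and 15.5% did not overlap in the comparisons with control, where slide and treatment cannot be told apart. The sum of 2 dim T cell markers also separated, at 395.4 to 443.1, 406.7 to 428.4 and 383.0 to 394.8 in the same order. The sum of 5 oligodendrocyte markers was 30858 to 67707, 20673 to 49970 and 38685 to 84219 in the same order, with overlap between all groups, and 5 of 5 had a log2 change below 0 for betamethasone against control, with a median of -0.66. No marker of these lists passed the test, and the part of cell makeup in the Rorb and Cux2 values was not tested.

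For the 7 tested genes with a value in all 12 samples, which leaves out Fezf2, the SD of log2 intensity, for 1 probe per gene, was 0.30 for Bcl11b, 0.23 for Tle4, 0.22 for Cux1, 0.20 for Cux2, 0.18 for Rorb, 0.15 for Pou3f2 and 0.12 for Tbr1. For the 3 of these 7 that varied most, the genes with the most similar centred profiles among 13016 were found by the root mean square of the log2 difference. They were Rab26 (0.14) and Septin9 (0.15) for Bcl11b, Cers2 and Kdm2b (both 0.09) for Tle4, and Col4a1 and Lpar6 (both 0.08) for Cux1. These likenesses are descriptions over 12 samples that share arrays.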

How the data were processed

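The authors deposited 2-colour Agilent scanner output. Per the file headers, the intensity columns used were mean foreground and median local background, read with Feature Extraction 11.5.1.1 for the control arrays and 11.0.1.1 for the others, whereas the submitters' processing notes name 10.7.3.1. Background was corrected with normexp (offset 50), which narrows the changes of dim probes. Control spots and spots marked as outliers were left out, then loess within and Aquantile between arrays were applied, and each channel was 1 sample (limma 3.58.1, statmod 1.5.0, R 4.3.3). The array correlation was 0.55. Probes needed values in at least 3 samples of both groups compared. The fit, not the normalization, was run on simulated data. Those held no slide effect and no areas of departing spots, so they cannot show how the fit deals with either. The deposited value table holds ratios of background-subtracted signals to each column's median, found by comparison with the scanner values, and the median of each of its 12 columns was 1; its columns for control 1 and 2 hold the scanner values of control 3 and 4, and the reverse, and it served as an alternative. Its direction is that of signal, so higher means brighter, and its authors' reason for the scaling is not given in the sources used here. Alternatives also changed the offset, the signals, the normalization, the filter, the block and the samples. Same-numbered samples of different groups were compared for pairing. Named genes were all members, up to 10 passing list genes, 3 per further layer list by p in 2 comparisons, and 2 per variable member by profile. The members and lists were chosen with earlier results of these data known. Gene symbols came from the array files, updated through RefSeq accessions for 18355 probes. The number of arrays limits the precision.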

Additional observations from a re-analysis of the deposited data

Results flagged for a closer look

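In 3 of 35 groups of 4 values examined, 1 sample stood further from the rest than Dixon's 95% critical value allows, and chance gives about 1 such group in 20. Foxp2 probe A_64_P048106 had a low value of 7.34 in betamethasone with ketamine sample 4, where the others had 7.49 to 7.51 (gap over range 0.856), in a probe mostly not above background. Cux2 probe A_64_P017515 had a high value of 12.34 in betamethasone sample 1, where the others had 11.91 to 11.98 (0.84). Pou3f2 probe A_64_P043609 had a low value of 8.96 in betamethasone sample 2, where the others had 9.14 to 9.16 (0.891). The samples concerned for Cux2 and Pou3f2 shared 1 array.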

How the results depend on the processing

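Over all results and alternatives, no member probe lost a call, since none passed to begin with. Outside the deposited value table, 3 values gained one, 1 for Fezf2 and 2 for Rorb, all given above. The number of probes called was 46 for betamethasone against control, 0 for ketamine against saline after betamethasone and 17 for betamethasone with ketamine against control. In the same order it was 115, 4 and 100 with Agilent's processed signals, 86, 1 and 42 with no filter on dim probes, 1044, 1 and 860 with no array block, and 38, 2 and 13 with an offset of 10. Both comparisons with control gave 1 call with array means as samples. They gave 214 and 2 with only the 2 groups compared, and 116 and 46 with the areas of departing spots left out. The replicate number as a block gave 25, 0 and 10. Correlations between same-numbered samples were -0.14 to 0.04, none above 0.1, and 0 of 12 samples correlated best with their own number. Same-numbered samples shared a dye, and the mean of each dye was subtracted first, which lowers their correlation. These values therefore cannot tell whether the numbers pair the samples. The replicate block had no member's call to end, since none passed in the main fit. The comparisons with control gave 304 and 233 without the array of control samples 1 and 2, and without that of control samples 3 and 4, 356 and 402. In the order of the 3 comparisons, leaving out the array of betamethasone samples 1 and 2 gave 20, 14 and 4, that of betamethasone samples 3 and 4 gave 20, 14 and 3, that of betamethasone with ketamine samples 1 and 2 gave 516, 32 and 112, and that of samples 3 and 4 gave 446, 2604 and 3514. Leaving out 1 sample at a time gave 3 to 77 for the first comparison, where the low end was without betamethasone sample 2, 0 for ketamine against saline, and 4 to 24 for betamethasone with ketamine against control, where the low end was without control sample 1. The causes of these shifts were not tested.

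Several log2 differences near 0 changed sign. With processed signals, betamethasone against control was -0.0322 for Cux1 A_64_P088005 and 0.0714 for Pou3f2. Ketamine against saline was then 0.0693 for Cux2 A_64_P017515 and -0.18 for Pou3f2, and betamethasone with ketamine against control -0.10 for Pou3f2. With quantile normalization, betamethasone against control was 6e-04 for Cux2 A_64_P012877 and for the upper layer median, and betamethasone with ketamine against control -0.0038 for Pou3f2.

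Without the array of control samples 1 and 2, betamethasone against control was -0.0818 for Tbr1 and -0.12 for the deep layer median. Betamethasone with ketamine against control was then -0.13 for Tbr1, -0.0118 for Cux1 A_64_P096157 and for the upper layer median, -0.13 for Pou3f2 and -0.20 for the deep layer median. With the array of control samples 3 and 4 left out, betamethasone against control was -0.13 for Cux1 A_64_P088005, 0.064 for Cux1 A_64_P096157 and for the upper layer median, 0.0035 for Cux2 A_64_P012877, 0.14 for Pou3f2 and 0.25 for the deep layer median. Betamethasone with ketamine against control was then 0.0933 for Tle4 and -0.0074 for Cux1 A_64_P088005. With the array of betamethasone samples 1 and 2 left out, betamethasone against control was 0.0416 for Pou3f2 and for the upper layer median, and ketamine against saline 0.10 for Cux2 A_64_P017515 and -0.025 for Pou3f2. Cux2 A_64_P012877 and the upper layer median were 0.0088 for betamethasone against control without the array of betamethasone samples 3 and 4. Without the array of betamethasone with ketamine samples 1 and 2, ketamine against saline was 0.11 for Bcl11b, 0.0786 for Fezf2, 0.0738 for Cux2 A_64_P017515, -0.004 for Pou3f2 and 0.0653 for the deep layer median, and Pou3f2 was -0.0117 against control. Without the array of betamethasone with ketamine samples 3 and 4, the deep layer median was -0.28 for ketamine against saline, and differences from control were -0.052 for Bcl11b and 0.0327 for Tle4.

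Leaving out 1 sample at a time, betamethasone against control ranged over -0.046 to 0.0935 for the upper layer median, -0.046 to 0.0162 for Cux2 A_64_P012877 and -0.14 to 0.0946 for Pou3f2. Ketamine against saline ranged over -0.0829 to 0.0828 for Cux2 A_64_P017515, -0.15 to 0.027 for Cux2 A_44_P485948, -0.0225 to 0.0687 for Pou3f2 and -0.0225 to 0.0828 for the upper layer median. Betamethasone with ketamine against control ranged over -0.12 to 0.12 for Pou3f2.

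The deposited value table, divided by column medians with no dye or array normalization, called 15428 probes for betamethasone against control and 16082 for betamethasone with ketamine against control, and 7938 and 6036 after centring its columns, an alternative chosen after seeing the data. For betamethasone against control it gave -0.69 for Bcl11b, -1.04 for Cux1 A_64_P088005, -0.77 for Cux2 A_44_P485948 and -0.93 for Rorb, with medians of -0.69 for deep and -1.04 for upper layer probes. After centring these were -0.17, -0.52, -0.25 and -0.41, with medians of -0.17 and -0.52. For betamethasone with ketamine against control it gave -0.90 for Bcl11b, -0.99 for Tbr1, -0.90 for Cux1 A_64_P088005, -0.67 for Cux1 A_64_P096157, -0.85 for Cux2 A_44_P485948, -1.11 for Pou3f2 and -0.52 for Rorb, with medians of -1.15 for deep and -0.88 for upper layer probes. After centring these were -0.37, -0.46, -0.38, -0.21, -0.32 and -0.58 for the first 6 and 0.0034 for Rorb, with medians of -0.62 and -0.35.

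Keeping the spots marked as outliers, also added after seeing the data, gave 34, 0 and 15 probes called. The deep layer median, which then includes Fezf2, was 0.173 for betamethasone against control and -0.0246 for betamethasone with ketamine against control. The precision is limited by 2 arrays per group, and by signal near background for Foxp2. Tested probes with low signal were Cux1 A_64_P096157 (7.46 to 7.88), Cux2 A_64_P012877 (7.61 to 7.87) and Tbr1 (7.63 to 8.06). The control values of Rorb, 7.98 to 8.13, reached into the Tbr1 range. With processed signals, the interval of Cux1 A_64_P096157 for betamethasone against control was -1.02 to 0.92, where the main fit gave -0.32 to 0.21.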
